A study of Mus musculus with 6 samples.

Results

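The actin cytoskeleton genes described here are 50 genes of actin itself and of the proteins that bind it, measured by RNA sequencing in RAW264.7 cells, a mouse macrophage cell line. They were chosen by gene symbol from the 25124 genes of the deposited TPM table (a level per unit of transcript length, as a share of all transcripts), with the M1 and M0 values of these same samples already known. Their levels and differences are therefore given as a description, without p-values. Where a member is said to be called, it passed the threshold of a fit over all genes. For a gene chosen in this way, that too is description and not an independent test. The samples fell into 2 groups of 3. The M1 samples were RAW264.7 cells given 100 ng/ml LPS, a bacterial endotoxin, together with 50 ng/ml IFN-γ, and the M0 samples were the same cells without either agent. All 6 samples came from cells that carried a control modification, a Cas9 plasmid lacking a guide sequence, and that grew in medium with 25 mM glucose. The sources used here do not give the duration of treatment. The labels do not say that replicates were separate cultures, so SDs and p-values cover the spread among these 6 samples alone, and that spread may be technical.

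Actin cycles between single molecules (monomers) and filaments. The Arp2/3 complex starts branches on existing filaments and formins start unbranched ones, capping proteins stop growth at filament ends, and cofilin and gelsolin cut filaments so that the monomers can be used again. Bundling proteins, myosin motors and membrane linkers turn these filaments into the ruffles, phagocytic cups, podosomes and cell cortex by which macrophages move, engulf particles and spread.

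Reads assigned to genes numbered 18666940 to 20283180 in M1 samples and 15615639 to 18110568 in M0 samples, so that 1 TPM of a transcript of 2000 bases stood for at least 26.5 reads. All 10 macrophage markers examined reached 1 TPM, with summed levels of 2783 to 2824 TPM in M1 samples and 3010 to 3237 TPM in M0 samples. The 6 genes used to check the M1 state summed to 6033 to 6201 TPM in M1 samples, against 26.9 to 28.6 TPM in M0 samples. Of the markers of T cells, B cells, epithelium and endothelium, 0 reached 1 TPM in any sample, and of the neutrophil, fibroblast and smooth muscle lists 1 gene each did. In a bulk measurement, less RNA per cell and fewer cells of a kind cannot be told apart.

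The choice of scale mattered more than any other choice. A TPM value is a share of a fixed total, and across the 11297 genes with at least 1 TPM in 3 or more samples the median log2 difference between M1 and M0 was -0.31. After each sample was rescaled by its median ratio to the other samples (median-of-ratios scaling), that median was 0.003. Each log2 difference below is M1 minus M0 of log2(TPM + 1), as limma fitted it, and the value after rescaling follows wherever the direction depends on it.

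Actin cytoskeleton genes were among the most abundant messages in the cells. Together they held 4.87% ± 0.0298 of the summed TPM in M1 samples and 4.52% ± 0.0482 in M0 samples (SD, n = 3 each). Without Actb and Tmsb4x, the 2 most abundant members, the rest held 2.85% ± 0.0316 in M1 samples and 2.91% ± 0.00970 in M0 samples. Actb alone held 1.02% ± 0.0158 in M1 samples and 0.657% ± 0.00829 in M0 samples, while the share of Tmsb4x overlapped between groups. Of the 20 most abundant genes 4 were members in either group, and 25 members in M1 and 26 in M0 were among the top 500. The median level of the 46 members that passed the filter was 242 TPM in M1 and 239 TPM in M0, against 13.3 TPM in M1 and 16.4 TPM in M0 over all genes that passed. The 4 members that did not pass (Cttn, Fscn1, Evl and Enah) lay under 1.5 TPM in every sample. All members that passed exceeded 10 TPM in all 6 samples, so none passed through one group alone.

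**Figure D1:**
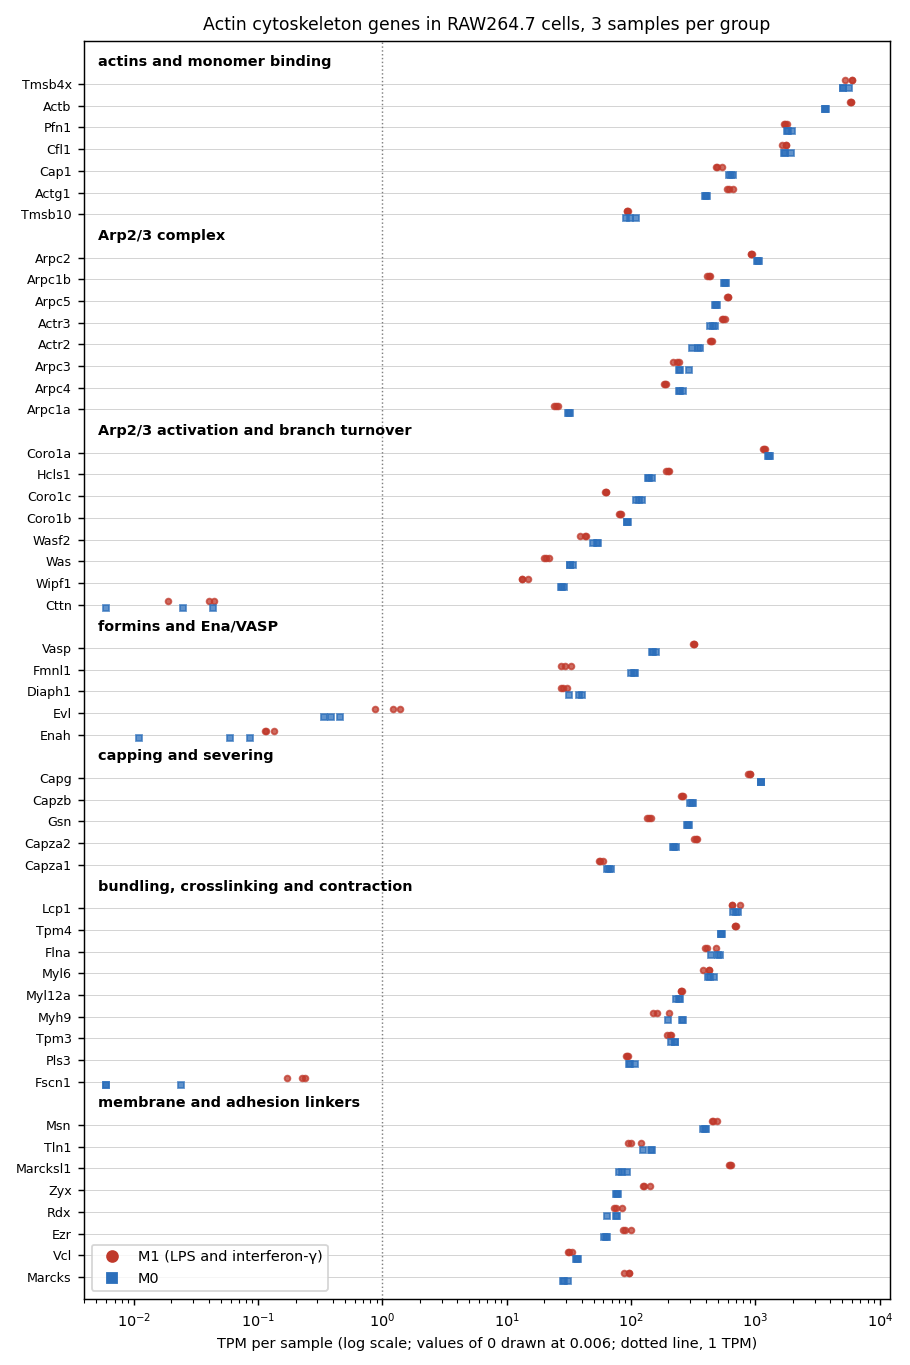
TPM of each of the 50 genes in each sample, on a log axis, with M1 samples as red circles and M0 samples as blue squares, grouped by the proteins' roles. Most members have both groups close together, while Marcksl1, Marcks, Vasp and Actb lie to the right in M1 and Fmnl1, Gsn, Coro1c and Wipf1 to the left.

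On the TPM scale, the M1 and M0 samples did not overlap for 15 members that were higher in M1 and 22 that were lower, and they overlapped for the other 9 of the 46. Over all genes that passed the filter, 19.6% did not overlap and were higher in M1 and 61.8% did not overlap and were lower. After rescaling, 30 members were higher without overlap and 6 lower, where the shares over all genes were 38.0% and 37.6%. By limma's adjusted p-value under 0.05, 14 members counted as higher and 22 as lower on the TPM scale, beside 18.7% and 61.5% of all genes, and 29 and 5 after rescaling, beside 36.9% and 36.6%. The authors' deposited table lists 49 of the members, 35 of them higher in M1 and 5 lower at an adjusted p under 0.05, beside 17.6% and 15.9% of the 24421 genes it lists. Because the members were chosen with this comparison known, nothing further is read from these counts.

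Some members kept their direction without overlap on both scales. The 15 members that were higher in M1 without overlap on the TPM scale were also higher without overlap after rescaling: Marcksl1, Marcks, Vasp, Zyx, Actb, Actg1, Capza2, Ezr, Hcls1, Actr2, Tpm4, Arpc5, Actr3, Msn and Myl12a. Lower without overlap on both scales were 6 members: Fmnl1, Gsn, Wipf1, Coro1c, Was and Arpc1b. By limma, Myl12a was not called on the TPM scale and Arpc1b was not called after rescaling. Of the others, 8 members were lower on the TPM scale and higher after rescaling, and 8 were lower on the TPM scale and overlapped after rescaling. Another 7 overlapped on the TPM scale and were higher after rescaling. Flna and Myh9 overlapped on both scales. The sign of the log2 difference turned for 19 of the 46. Over the 46 the median log2 difference was -0.12 by TPM and 0.23 after rescaling.

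**Figure D2:**
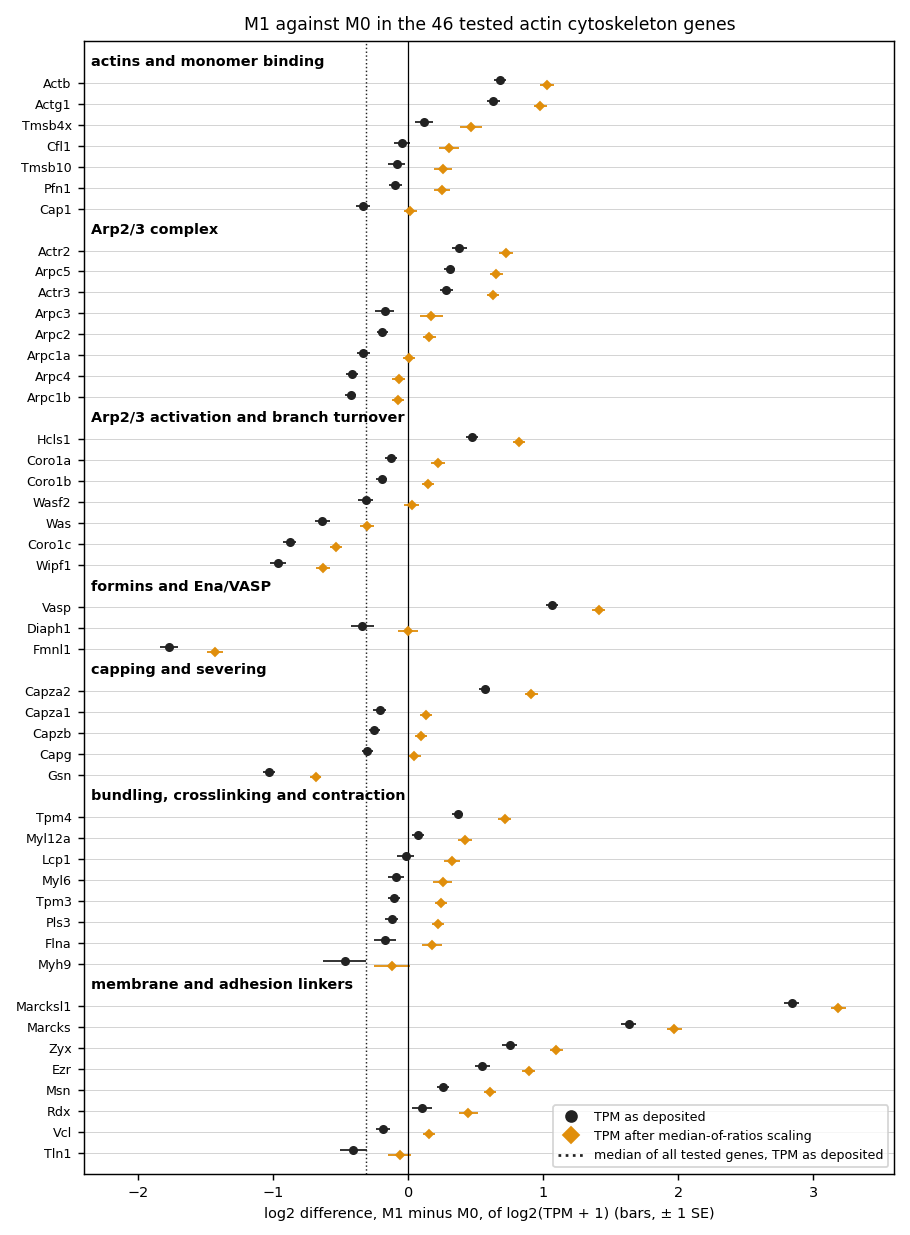
Log2 difference, M1 minus M0, of the 46 members that passed the filter, on the TPM scale (black circles) and after median-of-ratios scaling (orange diamonds), with bars of 1 SE. The dotted line marks the median of all genes that passed, -0.31 on the TPM scale, and rescaling moves the points to the right by a like amount.

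The actins were among the members that were higher in M1. Actb (chr5:142903115-142906754 in mm10, minus strand), which encodes cytoplasmic β-actin, had 5749, 5850.0 and 5888 TPM in M1 samples, against 3606, 3623 and 3686 TPM in M0 samples. The coefficient of variation was 1.23% in M1 and 1.16% in M0, the groups did not overlap, and the ratio of means was 1.60. The log2 difference was 0.68 ± 0.04 (SE), and 1.03 ± 0.05 after rescaling. By mean level Actb ranked as gene number 2 of the whole table in M1 and number 5 in M0. Actg1 (chr11:120345687-120348495, minus strand), which encodes cytoplasmic γ-actin, had 594, 612 and 659.7 TPM in M1 samples, against 397, 396 and 409.9 TPM in M0 samples. That is 1.55-fold higher in M1, a log2 difference of 0.63 ± 0.05 and of 0.98 ± 0.05 after rescaling. Within each sample Actb made up 90.4% ± 0.383 of the summed TPM of the 2 actins in M1 and 90.1% ± 0.0734 in M0, and the groups overlapped, so both messages were higher by nearly the same factor. The split of reads between these near-identical genes, and between either of them and processed copies in the genome, is uncertain.

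The muscle actin genes were close to silent. Acta2 had 0.233, 0.318 and 0.179 TPM in M1 samples and 0.174, 0.258 and 0.177 TPM in M0 samples, which overlap. The actin message of these cells was that of the cytoplasmic forms in both groups.

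Actin genes are textbook targets of serum response factor, which binds the CArG box, a CC and a GG around a run of A and T. RefSeq promoter windows in GRCm38.p6, the build that mm10 names, were at hand for 45 of the members, 59 windows in all, each from 250 bases before a start to 50 after it. A CArG box was found on either strand in 4 of the 59 windows (6.78%), against 1.63% of all 32851 windows and 1.24% of the windows of genes that passed the expression filter. The 4 stretches are shown because they hold this element, among the members with a window. Those with none were Actb, Marcks, Diaph1, Coro1b and Cttn. Capitals mark the box, and each stretch reads 5′ to 3′ along the strand of its gene.
Actg1 (chr11:120348556-120348605, minus strand): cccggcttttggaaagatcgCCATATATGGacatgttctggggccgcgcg
Vcl (chr14:20929151-20929200, plus strand): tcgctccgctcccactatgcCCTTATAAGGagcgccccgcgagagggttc
Arpc4 (chr6:113377863-113377892, plus strand): CCTAATTTGGtgcccaacctgaggtcgggc
Myl6 (chr10:128493030-128493079, minus strand): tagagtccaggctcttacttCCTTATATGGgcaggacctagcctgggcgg
The box begins 90 bases before the start of Actg1, 227 before that of Vcl and 250 before that of Arpc4. In Myl6 it begins 50 bases before an alternative start. That start lies 877 bases downstream, along the genome, of the start of the deposited transcript. On the TPM scale Actg1 was higher in M1, Vcl and Arpc4 were lower without overlap, and Myl6 overlapped. After rescaling Actg1, Vcl and Myl6 were higher without overlap and Arpc4 overlapped. A match is a string of letters and not a measured binding site.

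The proteins that hold or recycle actin monomers differed far less than actin. Tmsb4x, thymosin β4, which sequesters monomers, had 5962, 5938 and 5257 TPM in M1 samples, against 5679, 5047 and 5090.4 TPM in M0 samples. The groups overlapped, with a log2 difference of 0.12 ± 0.06, and separated upwards only after rescaling, at 0.47 ± 0.08. M1 replicate 3 and M0 replicates 2 and 3 were the low samples here, and without M1 replicate 3 or M0 replicate 1 the difference was 0.18 or 0.17, past limma's threshold. Tmsb10, thymosin β10, had 92.5, 93.0 and 95.0 TPM in M1 samples, against 109.8, 98.8 and 90.3 TPM in M0 samples, again with overlap. Its log2 difference was -0.09 ± 0.06 and 0.26 ± 0.07 after rescaling, and without M0 replicate 3, its lowest M0 sample, the TPM value was -0.15 and past the threshold.

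Profilin and cofilin messages followed the same pattern. Pfn1, profilin, which loads monomers with ATP and delivers them to growing ends, had 1746, 1801 and 1686 TPM in M1 samples, against 1955, 1803 and 1846 TPM in M0 samples. The highest M1 sample lay just under the lowest M0 sample, and the log2 difference was -0.10 ± 0.05, turning to 0.25 ± 0.06 after rescaling. Cfl1, cofilin, which severs old filaments, had 1766, 1777 and 1652 TPM in M1 samples, against 1942, 1700.5 and 1729 TPM in M0 samples. These overlapped, at -0.05 ± 0.06 and 0.30 ± 0.07 after rescaling. Cap1, cyclase-associated protein, which works with cofilin in recycling monomers, averaged 505 ± 27.7 TPM in M1 samples and 635 ± 23.5 TPM in M0 samples. Its log2 difference of -0.33 ± 0.05 was close to the median of all genes and became 0.02 ± 0.05 after rescaling.

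Ratios within a sample do not depend on the scale. The summed actin TPM was 3.70 ± 0.159 times that of Pfn1 in M1 samples, against 2.17 ± 0.101 times in M0 samples (SD, n = 3 each). Against Cfl1 it was 3.73 ± 0.203 times in M1 samples and 2.27 ± 0.176 times in M0 samples. Against the 2 thymosins it was 1.11 ± 0.0953 times in M1 samples and 0.754 ± 0.0546 times in M0 samples. In all 3 ratios every M1 sample lay above every M0 sample, so there was more actin message per message of each monomer-binding protein in M1. Thymosin, cofilin and profilin genes also have processed copies in the genome, and the division of reads among the copies is uncertain.

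Subunits of the Arp2/3 complex are encoded by 8 of the members, of which Arpc1a and Arpc1b encode alternative forms of the same subunit. The summed level over these genes was 3375 ± 12.3 TPM in M1 samples and 3442 ± 25.7 TPM in M0 samples. That sum is on the TPM scale and its direction depends on it: after rescaling 4 of the genes were called higher in M1 and 0 lower. Over all genes those shares were 36.9% and 36.6%. On the TPM scale none of the 8 genes overlapped between groups, with 3 higher in M1 and 5 lower. Of all genes 19.6% were higher without overlap and 61.8% lower. Higher in M1 were Actr2 and Actr3, which encode the actin-related proteins that form the base of the new branch, and Arpc5. Actr2 (chr11:20062304-20112951, minus strand) had 436, 429 and 445 TPM in M1 samples, against 309.9, 356 and 345 TPM in M0 samples, a log2 difference of 0.38 ± 0.05. Actr3 (chr1:125392905-125435727, minus strand) had 545, 539.8 and 570.4 TPM in M1 samples, against 434, 475 and 454 TPM in M0 samples, at 0.28 ± 0.05. Arpc5 (chr1:152766542-152775580, plus strand), which had the smallest spread of any member in M1 (0.409%), had 599.8, 595 and 597 TPM in M1 samples, against 484, 474 and 492 TPM in M0 samples, at 0.31 ± 0.04. After rescaling the 3 genes stood at 0.72, 0.63 and 0.65.

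Lower on the TPM scale were the scaffold and side subunits. Arpc1b averaged 421 ± 10.99 TPM in M1 samples and 566 ± 9.06 TPM in M0 samples, a log2 difference of -0.43 ± 0.04, or -0.08 ± 0.04 after rescaling, still without overlap. Arpc4 averaged 188 ± 4.14 TPM in M1 samples and 251 ± 8.001 TPM in M0 samples, at -0.42 ± 0.04, or -0.07 ± 0.05 after rescaling with overlap. Arpc1a, Arpc2 and Arpc3 stood at -0.33, -0.19 and -0.18 on the TPM scale and at 0.003, 0.15 and 0.17 after rescaling, so their direction depends on the scale. The ratio of Arpc5 to Arpc4 does not depend on it: Arpc5 was 3.18 ± 0.0831 times Arpc4 in M1 samples, against 1.92 ± 0.0556 times in M0 samples. Neither this ratio nor the sum above includes Arpc5l and Actr3b, relatives of Arpc5 and Actr3 outside the members. Both were called lower in M1 on the TPM scale, and the authors' deposited log2 fold changes for them were -0.59 and -0.86. The Arpc1b form supplied nearly all Arpc1 message in both groups, 94.4% ± 0.0765 in M1 samples and 94.7% ± 0.0246 in M0 samples, a small shift without overlap. Arpc3 lost its call without M1 replicate 1, M1 replicate 3 or M0 replicate 1, at -0.18, -0.13 and -0.09.

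Among the proteins that switch Arp2/3 on or take branches apart, 1 gene was higher in M1 and 6 were lower on the TPM scale, all without overlap, and 3 were higher and 3 lower after rescaling. The shares over all genes were 19.6% and 61.8% on the TPM scale and 38.0% and 37.6% after rescaling. Hcls1 (chr16:36934983-36963214, plus strand), which encodes HS1, the blood-cell relative of cortactin that stabilises branches, had 191, 198 and 201 TPM in M1 samples, against 137, 148 and 139 TPM in M0 samples. The log2 difference was 0.47 ± 0.05, and 0.82 ± 0.04 after rescaling. Cortactin itself (Cttn) was at the edge of detection, with 5 reads over the M1 samples and 3 over the M0 samples, so its level could not be compared at this depth. Within the Cttn and Hcls1 pair, Hcls1 made up at least 99.9% of the summed TPM in every sample.

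Lower in M1 were also Was and Wipf1. Was (chrX:8081466-8090491, minus strand), the Wiskott-Aldrich syndrome protein of blood cells, which builds podosomes, had 19.8, 20.5 and 21.7 TPM in M1 samples, against 34.0, 32.1 and 32.2 TPM in M0 samples. That is 1.58-fold lower in M1, a log2 difference of -0.64 ± 0.05, or -0.30 ± 0.05 after rescaling. Wipf1 (chr2:73429610-73485753, minus strand), which encodes WIP, the partner that protects WASP from degradation, had 13.4, 13.4 and 14.8 TPM in M1 samples, against 27.1, 28.7 and 27.9 TPM in M0 samples. Its 2.01-fold lower level gave -0.96 ± 0.06, or -0.63 ± 0.05 after rescaling. WASP and its partner were thus lower on both scales. Their relatives Wasl and Wipf2 were not called on the TPM scale, at -0.02 and -0.15. After rescaling Wasl was called higher in M1, at 0.29, and Wipf2 was not called. Without M1 replicate 3 Wipf2 was called lower on the TPM scale, at -0.22. Wasf2, or WAVE2, which drives lamellipodia downstream of Rac, averaged 41.8 ± 2.56 TPM in M1 samples and 52.3 ± 2.14 TPM in M0 samples. Its difference of -0.32 ± 0.06 became 0.02 ± 0.05 after rescaling. Was made up 33.1% ± 0.596 of the summed Was and Wasf2 TPM in M1 samples, against 38.5% ± 1.02 in M0 samples, without overlap.

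Coronins bind filaments and help to dismantle branches. Coro1a, the form of blood cells, had 1198, 1181 and 1146 TPM in M1 samples, against 1253, 1281 and 1322 TPM in M0 samples, a log2 difference of -0.13 ± 0.04 that turned to 0.22 ± 0.05 after rescaling. It lost its call without M1 replicate 2 or M0 replicate 3, at -0.13 and -0.11. Coro1b likewise stood at -0.20 and, after rescaling, at 0.15. Coro1c (chr5:113842439-113908706, minus strand) had 62.7, 63.0 and 61.8 TPM in M1 samples, against 110.5, 122 and 116 TPM in M0 samples, at -0.88 ± 0.05 and -0.54 ± 0.04 after rescaling. Coro1c supplied 4.74% ± 0.0626 of the summed Coro1a, Coro1b and Coro1c message in M1 samples and 7.76% ± 0.333 in M0 samples.

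The largest difference downwards and one of the largest upwards were found among the elongation factors, which lengthen unbranched filaments. Fmnl1 (chr11:103171138-103198900, plus strand), a formin of blood cells that localises to macrophage podosomes, had 27.3, 29.4 and 33.0 TPM in M1 samples, against 100.2, 108 and 105 TPM in M0 samples. It was 3.49-fold lower in M1, with a log2 difference of -1.78 ± 0.07 and of -1.43 ± 0.06 after rescaling. Vasp (chr7:19256930-19271854, minus strand), which encodes a protein that protects growing ends from capping, had 319, 317 and 321 TPM in M1 samples, against 151, 147 and 159 TPM in M0 samples. It was 2.09-fold higher, with a log2 difference of 1.06 ± 0.04 and of 1.41 ± 0.05 after rescaling.

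Diaph1, a formin, had 27.3, 28.6 and 30.6 TPM in M1 samples, against 31.9, 40.6 and 38.3 TPM in M0 samples, at -0.34 ± 0.08 and -0.003 ± 0.08 after rescaling. Fmnl1 therefore made up 50.8% ± 0.964 of the summed Diaph1 and Fmnl1 message in M1 samples, against 73.9% ± 1.74 in M0 samples. Of the other 2 members of the Ena/VASP family, Evl had 1.38, 1.23 and 0.877 TPM in M1 samples and 0.458, 0.340 and 0.389 TPM in M0 samples, from 112 and 34 reads. Enah had 0.134, 0.116 and 0.113 TPM in M1 samples and 0.0110, 0.0860 and 0.0590 TPM in M0 samples, from 69 and 26 reads. Both were above their M0 samples in all 3 M1 samples, yet Vasp made up at least 99.5% of the summed message of the family in every sample.

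**Figure D3:**
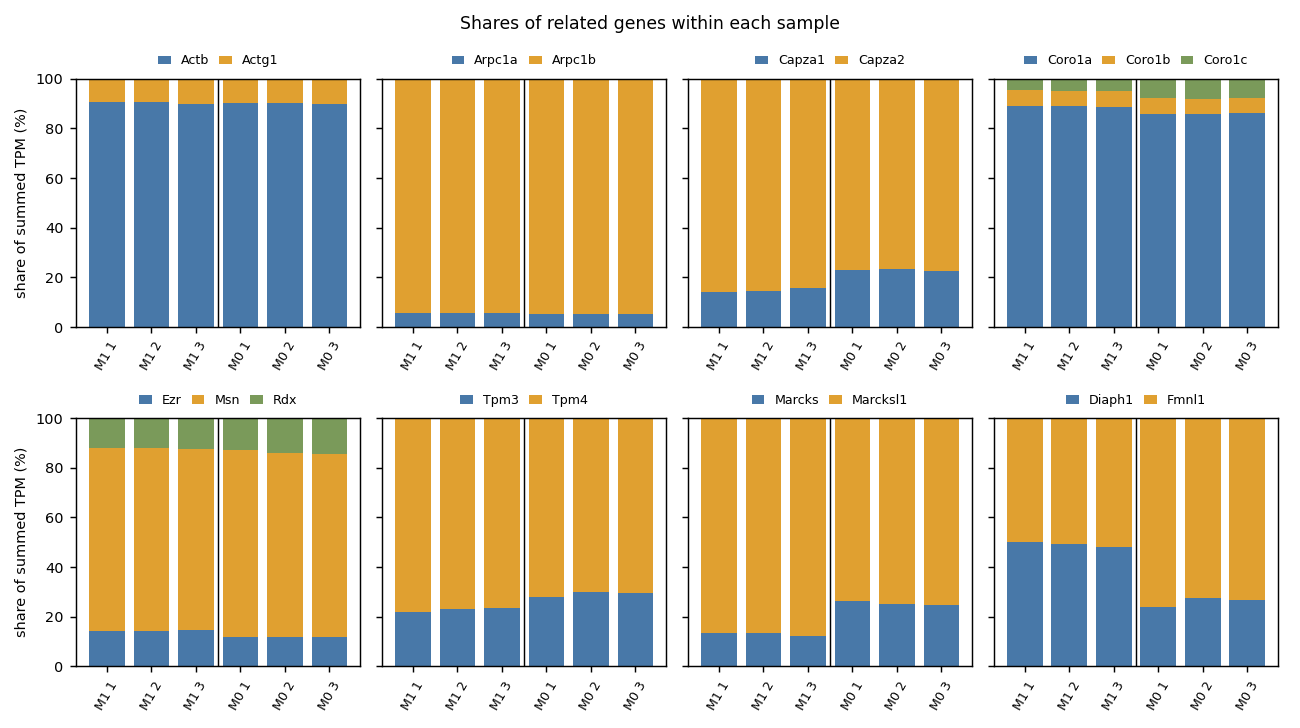
Share of each related gene in the summed TPM of its set within each sample (%), as stacked bars, with M1 samples left of the line and M0 samples right of it. The Capza, Coro1, Ezr-Msn-Rdx, Tpm, Marcks and Diaph1-Fmnl1 sets shift between groups, while Actb holds about 90% of actin in all 6 samples.

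Capping proteins close the fast-growing end of a filament. The capping protein is a pair of an alpha subunit, from Capza1 or Capza2, and a beta subunit, from Capzb. Capza2 (chr6:17637010-17666972, plus strand) had 339.6, 330.1 and 322 TPM in M1 samples, against 222, 229 and 219 TPM in M0 samples, a log2 difference of 0.56 ± 0.04 and of 0.91 ± 0.05 after rescaling. Its partners did not follow: Capza1 averaged 57.2 ± 2.04 TPM in M1 samples and 66.5 ± 2.76 TPM in M0 samples, and Capzb 257 ± 4.60 TPM in M1 samples and 306 ± 7.85 TPM in M0 samples. Those log2 differences were -0.21 ± 0.05 and -0.25 ± 0.04, and 0.13 and 0.10 after rescaling. Capza2 supplied 85.2% ± 0.774 of the alpha message in M1 samples and 77.0% ± 0.367 in M0 samples. The alpha sum was 1.51 ± 0.0533 times Capzb in M1 samples and 0.948 ± 0.0220 times in M0 samples.

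Gelsolin, which severs and caps filaments in response to calcium, was lower in M1. Gsn (chr2:35256359-35307902, plus strand) had 135, 140.0 and 145 TPM in M1 samples, against 283, 292 and 286 TPM in M0 samples. It was 2.05-fold lower, with a log2 difference of -1.03 ± 0.04 and of -0.69 ± 0.04 after rescaling. Capg, the gelsolin relative of macrophages that caps without severing, had 906, 905 and 880.2 TPM in M1 samples, against 1101, 1116 and 1108 TPM in M0 samples. Its difference of -0.30 ± 0.04 lay at the median of all genes, and after rescaling its samples overlapped at 0.04 ± 0.05. The 2 relatives thus differed from each other: the difference of Capg lay near the median of all genes, and that of Gsn lay below it.

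Of the bundling and crosslinking genes, most differed little on the TPM scale. Lcp1, or L-plastin, the bundling protein of blood cells, had 653, 654 and 752 TPM in M1 samples, against 659.5, 729 and 697 TPM in M0 samples, at -0.02 ± 0.06 and 0.33 ± 0.06 after rescaling. Its relative Pls3 averaged 92.7 ± 1.92 TPM in M1 samples and 101 ± 5.83 TPM in M0 samples, at -0.12 ± 0.05 and 0.22 ± 0.05 after rescaling. Pls3 lost its call without M1 replicate 1, M1 replicate 2, M0 replicate 2 or M0 replicate 3, at -0.12, -0.11, -0.08 and -0.14. Fscn1, fascin, which bundles filopodia and is abundant in mature dendritic cells, was close to absent: 10, 11 and 7 reads in M1 samples and 1, 0 and 0 reads in M0 samples. The M1 values were 0.224, 0.240 and 0.172 TPM, and the 2 M0 samples without a read allow at most 0.0744 and 0.0851 TPM. These limits cover counting error only.

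Tropomyosins coat filaments and set which other proteins can bind. Tpm4 (chr8:72135288-72153142, plus strand) averaged 689 ± 7.68 TPM in M1 samples and 534 ± 5.52 TPM in M0 samples, a log2 difference of 0.37 ± 0.04 and of 0.71 ± 0.05 after rescaling. Tpm3 averaged 204 ± 7.18 TPM in M1 samples and 220 ± 8.63 TPM in M0 samples with overlap, at -0.11 ± 0.05 and 0.24 ± 0.04. Tpm4 supplied 77.1% ± 0.812 of the message of the pair in M1 samples and 70.8% ± 1.01 in M0 samples.

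The widest spread of any member that passed the filter was that of a contraction gene, with an SE of 0.16. Myh9, the heavy chain of non-muscle myosin IIA, had 151, 163 and 201 TPM in M1 samples, against 198, 261 and 256 TPM in M0 samples. Flna, filamin A, which joins filaments at angles, had 396, 411 and 482 TPM in M1 samples, against 439.7, 516 and 498 TPM in M0 samples. Both overlapped, at -0.47 ± 0.16 and -0.17 ± 0.08, and at -0.12 ± 0.13 and 0.17 ± 0.07 after rescaling. Myh9 lost its call without M1 replicate 1, M1 replicate 2, M0 replicate 2 or M0 replicate 3, with differences of -0.38, -0.44, -0.40 and -0.41. Flna passed the threshold without M1 replicate 3, at -0.26, or without M0 replicate 1, at -0.24, and Tpm3 did so without the same samples, at -0.13 and -0.14.

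The myosin light chains were flatter. Myl6 had 422, 425 and 380.2 TPM in M1 samples, against 466, 432 and 412 TPM in M0 samples, with overlap, at -0.09 ± 0.06 and 0.25 ± 0.07 after rescaling. Myl12a (chr17:70993793-71002533, minus strand) had 251, 256 and 253 TPM in M1 samples, against 249.5, 229.9 and 243 TPM in M0 samples. The lowest M1 sample lay just above the highest M0 sample, at 0.07 ± 0.04 and 0.42 ± 0.05 after rescaling. Its close copy Myl12b had 134, 134 and 130.1 TPM in M1 samples, against 244, 224 and 221 TPM in M0 samples, and the division of reads between the pair is uncertain.

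The largest log2 difference of the 46 members that passed the filter was that of a membrane linker. Marcksl1 (chr4:129513581-129515981, plus strand) and Marcks (chr10:37133243-37138926, minus strand) encode a pair of related proteins that bind acidic lipids and crosslink actin at the plasma membrane, and both are known from the literature as LPS-responsive in macrophages. Marcksl1 had 612, 621 and 636 TPM in M1 samples, against 80.4, 85.2 and 93.6 TPM in M0 samples. It was 7.21-fold higher, with a log2 difference of 2.84 ± 0.06 and of 3.18 ± 0.05 after rescaling, and moved to rank 139 of all genes in M1, against rank 1260 in M0. Marcks had 95.8, 96.0 and 87.1 TPM in M1 samples, against 28.7, 28.3 and 30.9 TPM in M0 samples, 3.17-fold higher, at 1.63 ± 0.06 and 1.97 ± 0.06 after rescaling. Marcksl1 was 6.72 ± 0.501 times Marcks in M1 samples, against 2.94 ± 0.127 times in M0 samples.

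The ezrin, radixin and moesin proteins tie filaments to membrane proteins. Msn, moesin, the main form here, had 451, 459 and 489 TPM in M1 samples, against 379.9, 399.6 and 391 TPM in M0 samples, at 0.26 ± 0.05 and 0.60 ± 0.04 after rescaling. Ezr (chr17:6738131-6782780, minus strand), ezrin, had 86.8, 89.5 and 99.4 TPM in M1 samples, against 60.5, 64.2 and 62.8 TPM in M0 samples, at 0.55 ± 0.06 and 0.89 ± 0.05 after rescaling. Rdx, radixin, averaged 77.8 ± 5.97 TPM in M1 samples and 72.6 ± 7.27 TPM in M0 samples with overlap, at 0.10 ± 0.08 and 0.44 ± 0.07. Ezr supplied 14.4% ± 0.299 of the message of the 3 genes in M1 samples and 11.9% ± 0.0879 in M0 samples, and Rdx 12.2% ± 0.311 in M1 samples and 13.8% ± 0.9504 in M0 samples, both without overlap.

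At adhesions, zyxin stood apart from talin and vinculin. Zyx (chr6:42349828-42358562, plus strand), which brings Vasp to adhesions and stressed filaments, had 124, 126 and 143 TPM in M1 samples, against 76.8, 76.4 and 78.5 TPM in M0 samples. It was 1.70-fold higher, with a log2 difference of 0.75 ± 0.06 and of 1.10 ± 0.05 after rescaling, so that zyxin and its partner Vasp were both higher. Tln1, talin, which activates integrins, had 94.6, 99.2 and 119.7 TPM in M1 samples, against 124, 148 and 145 TPM in M0 samples, at -0.41 ± 0.10 and -0.06 ± 0.08 after rescaling. Vcl, vinculin, which strengthens the talin link, averaged 32.1 ± 1.46 TPM in M1 samples and 36.7 ± 0.726 TPM in M0 samples, at -0.19 ± 0.05 and 0.15 ± 0.04 after rescaling.

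An AP-1 site, TGANTCA on either strand, was found in 4 of the 59 member windows (6.78%), in 7.81% of all windows and in 5.10% of the windows of genes that passed the filter. The 4 stretches were picked for display after the values were seen, because all belong to genes higher in M1 without overlap on both scales. These genes are Zyx, Ezr, Hcls1 and Myl12a. Over all genes, 19.6% were higher without overlap on the TPM scale and 38.0% after rescaling. A link between the site and the differences was not tested. Capitals mark the site, and each stretch reads 5′ to 3′ along the strand of its gene.
Zyx (chr6:42349687-42349733, plus strand): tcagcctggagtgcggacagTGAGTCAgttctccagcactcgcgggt
Ezr (chr17:6782786-6782832, minus strand): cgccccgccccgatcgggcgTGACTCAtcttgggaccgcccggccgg
Hcls1 (chr16:36934891-36934937, plus strand): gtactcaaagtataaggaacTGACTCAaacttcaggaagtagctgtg
Myl12a (chr17:71002644-71002690, minus strand): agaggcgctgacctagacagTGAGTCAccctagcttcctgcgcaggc
The sites begin 121, 32, 72 and 137 bases before the starts of those genes, in the order shown. The windows of Marcksl1 and Vasp, which had larger differences, hold no TGANTCA. The letters TTCNNNGAA, those of a gamma-activated site, occur in 1 member window (Cap1), 1.69% of the 59 against 8.30% of all windows. An interferon-stimulated element occurs in 1 (Wipf1), 1.69% against 3.44%. The GC box GGGCGG was found in 71.2% of member windows and 35.7% of all windows, and in 62.9% of the windows of genes that passed the expression filter. A kappaB site was found in 9 member windows (15.3%), in 8.46% of all windows and in 10.3% of those of genes that passed the filter. Of the 9 genes that hold it, 3 were higher in M1 without overlap and 3 lower on the TPM scale (19.6% and 61.8% over all genes), and 6 and 2 after rescaling (38.0% and 37.6%).

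Transcript length moved with the spread inside the groups. Across the 46 genes, each sample's deviation from its group mean of log2(TPM + 1) was correlated with the logarithm of transcript length, with Pearson's r of -0.65, -0.68 and 0.73 in M1 replicates 1 to 3 and of -0.78, 0.72 and 0.52 in M0 replicates 1 to 3. All points of one value of r share a library. Over all 11297 genes r lay between -0.24 and 0.34, with the same sign in each sample. In M0 replicate 3, however, it was only 0.002 over all genes, against 0.52 for the members. The 5 members over 5000 bases (Myh9, Tln1, Flna, Diaph1 and Vcl) stood at 0.925, 0.961 and 1.13 times their group mean in M1 replicates 1 to 3 and at 0.897, 1.07 and 1.04 times in M0 replicates 1 to 3. M1 replicate 3 was thus high for long members and M0 replicate 1 low, and these are the samples without which Flna changed its call. Neither sign was particular to one group, and the part of length in the differences of Myh9, Flna and Tln1 was not tested.

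**Figure D4:**
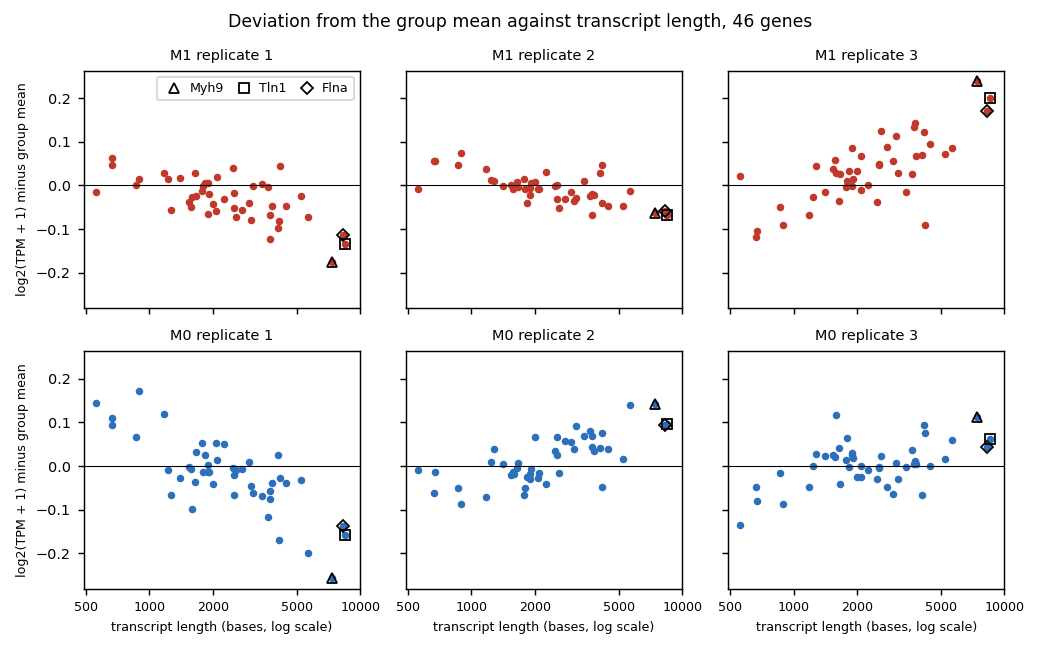
Deviation of each of the 46 genes from its group mean of log2(TPM + 1) against transcript length (log axis), one panel per sample, M1 samples in red above and M0 samples in blue below. Long genes lie low in M1 replicate 1 and M0 replicate 1 and high in M1 replicate 3, and Myh9, Tln1 and Flna (open symbols) are at the far end in each panel.

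The other genes of the actin pathway were examined for comparison, in 10 lists of signalling, nucleating, severing, linking and motor genes with 275 genes in all. These lists were chosen with earlier results of these data known, so their counts and adjusted p-values are not independent tests. Of the 215 that passed the filter, 46 rose and 141 fell in M1 on the TPM scale (limma, adjusted p under 0.05), where 2111 and 6944 of all 11297 genes did. After rescaling 70 were higher and 114 lower, where 36.9% and 36.6% of all genes were. Their median log2 difference was -0.53 by TPM and -0.20 after rescaling, against -0.31 and 0.003 over all genes, while that of the 46 members was -0.12 and 0.23. At 2-fold or more, 10 rose and 51 fell on the TPM scale, where 17.8% of all genes were called at that size in either direction. Genes named below by the size of their difference kept their call after rescaling.

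**Figure D5:**
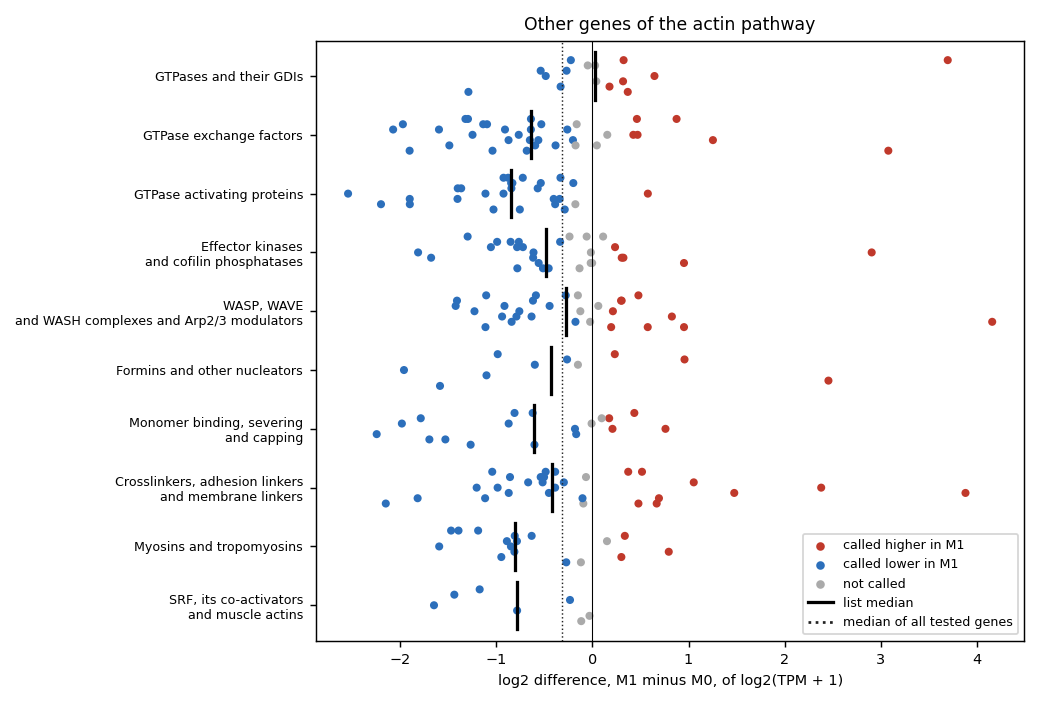
Log2 difference, M1 minus M0, of the 215 other actin genes that passed the filter, 1 point per gene and 1 row per list, red where called higher in M1, blue where called lower and grey where not called. Black bars mark list medians and the dotted line the median of all genes, -0.31, and 8 of the 10 list medians lie to its left.

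The switches upstream of actin are small GTPases. Of the 15 that passed with their GDIs, 6 rose and 6 fell (18.7% and 61.5% of all genes). After rescaling 10 were higher and 3 lower (36.9% and 36.6% of all genes). Rnd3, an atypical GTPase that opposes RhoA, had 29.9, 27.1 and 29.0 TPM in M1 samples, against 1.49, 1.24 and 1.15 TPM in M0 samples. It rose 22.2-fold, with a log2 difference of 3.70 ± 0.08 (limma, adjusted p = 3.0e-12). Rhoq (TC10) rose by 0.65 on the log2 scale, while Rnd2 and Rhoj fell by 1.29 and 0.54 on the log2 scale (limma, adjusted p = 1.0e-05, 4.3e-08 and 1.7e-06). The core GTPases depended on scale: Rhoa stood at -0.33 and 0.02, Cdc42 at -0.27 and 0.08, and Rac2 at 0.04 and 0.39, while Rac1 was lower on both, at -0.48 and -0.14.

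Of 34 exchange factors, which switch these GTPases on, 24 fell and 6 rose on the TPM scale, where 61.5% and 18.7% of all genes did. After rescaling 20 were lower and 8 higher, beside 36.6% and 36.9% of all genes. Arhgef3, an exchange factor for RhoA, rose most in size. Arhgef3 had 44.4, 46.2 and 49.5 TPM in M1 samples, against 4.32, 5.36 and 4.32 TPM in M0 samples, 10.0-fold higher at 3.08 ± 0.08 (limma, adjusted p = 2.2e-11). Dock10 rose by 1.25 on the log2 scale (adjusted p = 1.8e-08), whereas Fgd4 and Arhgef10l fell by 2.07 and 1.97 on the log2 scale (adjusted p = 2.9e-10 and 2.4e-09).

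Of 27 GTPase activating proteins, which switch them off, 25 fell and 1 rose on the TPM scale (61.5% and 18.7% of all genes), with a median log2 difference of -0.84, and 19 were lower and 2 higher after rescaling (36.6% and 36.9% of all genes), with a median of -0.56. Arhgap45 had 8.52, 8.24 and 9.44 TPM in M1 samples, against 54.4, 56.5 and 55.8 TPM in M0 samples, 6.36-fold lower at -2.54 ± 0.06 (limma, adjusted p = 9.9e-12). Arhgap6 fell by 2.20 on the log2 scale (adjusted p = 4.6e-09). The gene that rose was Srgap2, by 0.58 on the log2 scale (adjusted p = 1.3e-05).

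Below the GTPases, 5 of 28 genes in a list of kinases, phosphatase subunits and other effectors rose and 16 fell (18.7% and 61.5% of all genes). After rescaling 10 were higher and 14 lower (36.9% and 36.6% of all genes). Cdc42ep2, an effector of Cdc42, had 57.9, 57.3 and 61.3 TPM in M1 samples, against 7.05, 7.06 and 6.85 TPM in M0 samples, 8.42-fold higher at 2.90 ± 0.05 (limma, adjusted p = 1.2e-12). The other genes that rose were Ppp1r12b, Ppp1r12a, Ssh3 and Pkn2, by 0.95, 0.32, 0.31 and 0.24 on the log2 scale. Among those that fell, Ssh2, a phosphatase that activates cofilin, fell by 1.81 on the log2 scale (adjusted p = 6.0e-09), and Cdc42ep3, a relative of Cdc42ep2, by 1.68 (adjusted p = 2.1e-10).

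Of 29 genes of the WASP, WAVE and WASH complexes and of Arp2/3 modulators, 9 rose and 16 fell (18.7% and 61.5% of all genes). After rescaling 13 were higher and 13 lower (36.9% and 36.6% of all genes). Pstpip2, an F-BAR protein of macrophages, had 22.5, 23.1 and 25.9 TPM in M1 samples, against 0.453, 0.412 and 0.303 TPM in M0 samples, a 61.2-fold rise from 39 reads over the M0 samples. Its log2 difference of 4.16 ± 0.08 (limma, adjusted p = 1.7e-12) is understated by the pseudocount of 1. Whamm rose by 0.95 on the log2 scale, and Abi3 and Abi2, subunits of the WAVE complex, fell by 1.42 and 1.41 on the log2 scale (adjusted p = 7.2e-08, 8.9e-09 and 8.7e-08).

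Formins beyond Fmnl1 and Diaph1 went different ways. Of 10 genes in that list 3 rose (Fmnl2, Diaph2 and Daam1) and 6 fell, beside 18.7% and 61.5% of all genes. After rescaling 3 were higher and 5 lower, beside 36.9% and 36.6% of all genes. Fmnl2, a close relative of Fmnl1, had 23.8, 23.2 and 25.7 TPM in M1 samples, against 3.37, 3.90 and 3.54 TPM in M0 samples, 6.73-fold higher at 2.46 ± 0.07 (limma, adjusted p = 5.3e-11). Fmnl3, the remaining relative, had 10.96, 10.4 and 12.6 TPM in M1 samples, against 34.4, 37.4 and 35.9 TPM in M0 samples, at -1.58 ± 0.07 (adjusted p = 2.6e-09). Fmnl1 and Fmnl3 were therefore lower and Fmnl2 higher. Fhod1 fell by 1.96 on the log2 scale (adjusted p = 1.3e-09), and the small rise of Daam1, 0.23 (adjusted p = 0.019), lost its call without M1 replicate 2, M1 replicate 3 or M0 replicate 1.

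Of 18 further monomer binding, severing and capping genes, 4 rose (Carmil1, Tmod3, Wdr1 and Dstn) and 12 fell. After rescaling 7 were higher and 10 lower. Over all genes the shares were 18.7% and 61.5% on the TPM scale, and 36.9% and 36.6% after rescaling. Tmod3, which caps slow-growing ends, rose by 0.44 on the log2 scale and Wdr1, a cofactor of cofilin, by 0.21 (limma, adjusted p = 5.7e-06 and 0.0015). Mtss1 fell to 16.1, 16.0 and 19.4 TPM in M1 samples, against 80.1, 87.6 and 86.5 TPM in M0 samples, at -2.24 ± 0.07 (adjusted p = 1.8e-10), and Eps8 fell by 1.98 on the log2 scale (adjusted p = 1.9e-10).

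Crosslinkers and linkers counted 9 that rose and 19 that fell of 30 (18.7% and 61.5% of all genes). After rescaling 12 were higher and 15 lower (36.9% and 36.6% of all genes). Cnn3, calponin 3, had 45.0, 44.9 and 45.99 TPM in M1 samples, against 2.26, 2.25 and 1.93 TPM in M0 samples, 21.1-fold higher at 3.88 ± 0.06 (limma, adjusted p = 5.3e-13). Epb41 and Pdlim2 fell by 2.15 and 1.82 on the log2 scale (adjusted p = 3.9e-10 for each).

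Of 17 myosin and tropomyosin genes 3 rose (Myo10, Myo1d and Myo1h) and 12 fell, beside 18.7% and 61.5% of all genes. After rescaling 4 were higher and 11 lower, beside 36.9% and 36.6% of all genes. Myo10, the filopodial motor, rose by 0.79 on the log2 scale, and Myo1f and Myo1c, membrane-bound motors, fell by 1.59 and 1.47 (limma, adjusted p = 1.1e-05, 8.0e-09 and 3.0e-08).

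Of the list of serum response factor, its partners and muscle actins, 7 genes passed: Srf, Mrtfa, Mrtfb, Elk1, Elk3, Elk4 and Tagln. No muscle actin gene was among them. Of the 7, limma called 0 higher and 5 lower on the TPM scale. After rescaling it called 1 higher and 4 lower. Over all genes the shares were 18.7% and 61.5% on the TPM scale, and 36.9% and 36.6% after rescaling. None of the 7 genes had a positive TPM difference at any p, and 1 of the list was higher in the authors' deposited table. Srf itself had 34.0, 35.5 and 39.5 TPM in M1 samples, against 35.7, 37.99 and 37.5 TPM in M0 samples, at -0.03 ± 0.06 (adjusted p = 0.66) and 0.31 ± 0.05 after rescaling (adjusted p = 0.00037). Mrtfa, the co-activator that senses free actin monomers, had 10.9, 11.4 and 12.3 TPM in M1 samples, against 35.5, 40.1 and 39.2 TPM in M0 samples, 3.32-fold lower at -1.65 ± 0.07 (limma, adjusted p = 9.2e-10). Elk3 fell by 1.44 on the log2 scale (adjusted p = 2.2e-09), and Mrtfb and Elk1 fell by 0.78 and 1.17 on the log2 scale. Elk4 was called lower at -0.23, but stood at 0.09 after rescaling, not called, and lost its call without M1 replicate 1, M1 replicate 2, M0 replicate 2 or M0 replicate 3, at -0.24, -0.19, -0.17 and -0.18.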

How the data were processed

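Poly(A) RNA of 3 M1 and 3 M0 samples of RAW264.7 cells was sequenced. Per the submitters' processing notes, which give neither role nor order, the tools were HOMER 4.11.1, STAR 2.7.5a, DESeq2 and bcl2fastq, and the build was mm10. The authors deposited TPM for each gene in each sample, with 1 transcript and its length per gene, according to the column headers. Their second table holds log2 values per sample, not used here, and for the comparison of the groups a log2 fold change, a p-value and an adjusted p-value, all deposited by the authors. Whether counting used the strand is not stated.

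TPM values are not counts, so the test was limma 3.58.1 (R 4.3.3, trend and robust empirical Bayes) on log2(TPM + 1), for genes with at least 1 TPM in at least 3 of the 6 samples. Group was the only term, and Benjamini-Hochberg adjustment ran over 11297 genes, called under 0.05, two-sided. The procedure was tested on simulated data. Folds were taken between mean TPM values; the log2 differences carry the pseudocount and so understate changes of low genes. A single gene's exact permutation test has a smallest p of 0.10 at this size, so none was run. TPM times transcript length gave whole multiples of one value per library (within 0.1 read, for 99.8% to 100% of values), from which reads were recovered. In the rescaled fit TPM was divided by median-of-ratios factors, 0.879 to 0.904 in M1 samples and 1.11 to 1.14 in M0 samples. Promoter windows are RefSeq's (GRCm38.p6).

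The members and the lists were chosen with earlier results of these data known. Sample values were given for 20 members whatever their values, for the 10 with the largest log2 difference (5 TPM or more in either group) and the 5 nearest 0, and for others where the text turns on them. Of each other list, the 2 called genes with the largest rise and the 2 with the largest fall were named (same minimum), and counts of 5 or fewer by name. A gene that this rule names is not reported here. Rhoa, Rac1, Rac2, Cdc42, Srf, Acta2, Myl12b, Wasl, Wipf2, Arpc5l and Actr3b were singled out after their values were seen. So were Fmnl3 as a relative of Fmnl1, and the motifs shown as sequence. The main fit did not pair samples by replicate number. The alternatives tried were pseudocounts of 0.1 and 5, no filter, median-of-ratios scaling, each sample left out, and the replicate number as a block.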

Additional observations from a re-analysis of the deposited data

How the results depend on the processing

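Under median-of-ratios scaling the calls over all genes became 4173 higher and 4131 lower in M1, those among the other actin genes 70 higher, and those among the 50 genes 29 higher and 5 lower. Under the same scaling the sign of a called log2 difference turned for Arpc1a (0.00344), Arpc2 (0.15), Arpc3 (0.17), Capg (0.0431), Capza1 (0.13), Capzb (0.10), Cap1 (0.0151), Coro1a (0.22), Coro1b (0.15), Wasf2 (0.0235), Pls3 (0.22) and Vcl (0.15). The cause was not tested, beyond the shift of the median of all genes. With each sample left out in turn, counts higher and lower ran from 1990 to 2076 and from 6606 to 6997 over all genes, from 43 to 45 and from 132 to 147 among the other actin genes, and from 14 to 15 and from 19 to 23 among the 50. Calls that changed without a sample were those of Arpc3, Pls3, Myh9 and Coro1a (lost) and Tmsb4x, Flna, Tpm3 and Tmsb10 (gained). Among the other genes named, they were those of Daam1 and Elk4 (lost) and of Wipf2 (gained as lower, without M1 replicate 3). With no filter, 16 of the 50 were called higher and 20 lower, with Fscn1 and Evl gained and Arpc3 and Pls3 lost, and Elk4 was lost. Pseudocounts of 0.1 and 5 gave 2103 and 2113 genes higher and 6915 and 6954 lower over all genes, and 14 higher and 22 lower among the 50.

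Across all genes that passed the filter, deviations of samples with the same number correlated at 0.07, -0.08 and 0.04. Among the 46 members, the r of deviation with length was -0.65 in M1 and -0.78 in M0 for replicate 1. It was -0.68 and 0.72 for replicate 2, and 0.73 and 0.52 for replicate 3. The SE of Myh9 was 0.16 without the replicate number as a block and 0.06 with it. Whether samples of the same number share a source of spread was not tested. With the replicate number as a block, the calls were 2143 higher and 7016 lower over all genes, 47 and 142 among the other actin genes, and 14 and 24 among the 50, where Flna and Tpm3 became called lower, at -0.17 and -0.11. Depth limits Cttn, Fscn1, Enah and Evl, which rest on 3 to 112 reads a group, apart from the 1 read of Fscn1 in M0 samples.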
